A study of Mus musculus with 26 samples.

Results

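Pdgfra-expressing stromal cells of the mouse heart were compared between day 28 and day 14 after ligation of the left anterior descending (LAD) coronary artery. The comparison used 7 libraries at day 28 and 4 at day 14, which are 11 of the 26 libraries of the series. Members were taken by the time point and replicate code in the titles, and the gate was a term in the model. A second fit kept at day 28 only the 4 libraries whose titles carry R60-60 before the code.

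Each library came from C57BL/6 mice of the strain B6.129S4-Pdgfratm11(EGFP)Sor/J, in which a histone H2B-EGFP fusion is expressed from the Pdgfra locus. All 11 libraries share this reporter allele and the ligation, and no age or operated control without ligation is given in the labels. Hearts were dissociated with enzymes and cells negative for CD45 (leukocytes) and CD31 (endothelium) and positive for GFP were split on SCA-1 (encoded by Ly6a, a cell surface protein). Day 14 held codes D1 and D9, each with a Sca-1 positive and a Sca-1 negative library, all with R60-65 before the code. Day 28 held codes B4 and B6 in both gates with R60-60, plus the letter-coded libraries E2 and F2 (positive) and E4 (negative), which carry no such number. The R60 number differs between the times, so whatever it stands for and the time after ligation cannot be told apart. Whether libraries came from different animals is not in the labels, so each p measures the spread between these libraries, which may be technical.

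After an infarct, resident fibroblasts proliferate, switch on collagens, contractile proteins and secreted scar proteins, and later leave the cell cycle and settle within a mature scar. The circadian clock, which runs in most cells of the heart, is a feedback loop in which Arntl (BMAL1) with Clock or Npas2 activates Per, Cry, Nr1d1 and the output factors Dbp, Tef and Hlf. Nr1d1 and Nr1d2 in turn repress Arntl.

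Totals over genes were 19.6 to 48.8 M counts per library at day 14 and 6.79 to 17.6 M at day 28, so that 3 counts correspond to 0.0573 to 0.422 CPM (counts scaled to the library's size). The day 28 library E2 stood apart, with 55.8% of its reads outside genes against 7.18% to 18.7% in the other 10. Both D9 libraries had high Xist (811.7 and 293.2 CPM) and almost no Y-linked counts, whereas the other 9 had Y-linked counts and Xist of at most 10.4 CPM. No day 28 library was like D9 in this, so the difference cannot be fully told apart from time. Adipocyte markers summed to 13.6 and 7.47 CPM in D9 and to at most 0.644 CPM elsewhere. Ly6a separated the gates at both times (465 and 538 CPM in the positive against 61.8 and 82.5 CPM in the negative libraries at day 14, 290.1 to 398 against 25.4 to 55.9 CPM at day 28). Pdgfra was at 367 to 595 CPM at day 14 and 487 to 805 CPM at day 28, and its difference did not pass the test (log2 0.27 ± 0.18 SE, edgeR adjusted p = 0.44). Summed markers of endothelium, macrophages and mural cells overlapped between the times, and none of their 46 tested genes was called (edgeR; 1, 2 and 0 at an unadjusted p under 0.05, and none by limma-voom with the block). With R60-60 alone at day 28, 5 of 16 endothelial markers fell (31.2%, against 19.2% of all genes), namely Cdh5, Kdr, Vwf, Ptprb and Cd93. Of these the block left 4, and none of the macrophage or mural markers was called. Between the R60-60 and letter-coded libraries 6 endothelial markers were lower in R60-60, with a list median of -1.26. The endothelial sum was 242 to 308 CPM at day 14, 285 to 351 CPM in the letter-coded and 192 to 552 CPM in the R60-60 libraries, the highest being the positive B6 library, where Plvap alone gave 327 CPM. The part of these markers in the R60-60 results was not tested. The cardiomyocyte sum was 314 to 426 CPM at day 14 and 470 to 573 CPM at day 28 with none of 12 genes called (edgeR, 2 at an unadjusted p under 0.05; none with the block), and its part in the results was not tested. In such bulk libraries fewer cells of a type and less RNA per cell cannot be told apart.

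Between the times 190 genes rose and 289 fell, out of 13344 tested (1.42% and 2.17%, edgeR quasi-likelihood test, adjusted p under 0.05, here a call), together 3.59% of genes. With the R60-60 libraries alone at day 28, 1232 genes rose and 1326 fell out of 13300 (9.26% and 9.97%, together 19.2%). The median log2 difference over all genes was -0.00096 in the former and -0.034 in the latter. Treating the libraries of a code as a block (limma-voom) left 37 higher and 62 lower genes (0.277% and 0.465%) in the 11 libraries. In the R60-60 comparison the block left 1114 and 996 (8.38% and 7.49%), with a fitted correlation within codes of 0.0886 against 0.425 in the 11 libraries. The same 4 day 14 libraries served every comparison. Without code B4 the 11-library count was 85. Without D1 it was 132 (0.407% higher and 0.553% lower), without D9 163 (0.0873% and 1.1%) and without E2 789 (2.42% and 3.52%). In the fit without D1 only the D9 libraries remained at day 14. Of Xist and the Y-linked genes, 4 were called higher and 1 lower at day 28 there. With libraries summed per code, 594 rose and 430 fell (4.37% and 3.16%), and with the letter-coded libraries alone at day 28, 46 rose and 136 fell (0.33% and 0.974%). All late libraries lay above all early ones for 2.57% of genes and below them for 2.59%, and the R60-60 libraries did so for 10.5% and 11.2%. Of 75 called genes that the naming rule gave, 11 passed in all 25 other settings: Dbp, Tef, Smoc1 and Nmb, all higher at day 28, and Wnt2, Wif1, Tbx5, Sox4, Sned1, Trabd2b and Arsi, all lower.

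Of 18 circadian clock genes tested, 7 rose and none fell in the 11 libraries, with a median log2 difference of 1.13 over the list. Dbp, an output transcription factor (ENSMUSG00000059824, GRCm38 chromosome 7, 45705088 to 45710203), was at 19.7 and 22.7 CPM in the D1 and 19.9 and 16.7 CPM in the D9 libraries (negative, then positive). At day 28 its lowest, median and highest values were 60.0, 113 and 177 CPM. All 7 late libraries lay above all 4 early ones, and the log2 difference was 2.59 ± 0.27 (SE, edgeR adjusted p = 0.00047). Its relative Tef was at 40.2 to 54.7 CPM at day 14 and had a lowest value of 97.0, a median of 124 and a highest of 188 CPM at day 28. The Tef difference was 1.55 ± 0.20, again without overlap (edgeR adjusted p = 0.0021). For Hlf, the remaining factor of this group, the day 14 values were 40.1, 25, 42.3 and 28.2 CPM, and day 28 ran from 58.1 through 101 to 242 CPM in E2 (log2 1.78 ± 0.39, edgeR adjusted p = 0.032, blocked adjusted p = 0.066).

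The repressor Nr1d1 rose from 145 to 167 CPM at day 14 to between 233 and 489 CPM (log2 1.21 ± 0.17, edgeR adjusted p = 0.0037, blocked 0.0079). Its paralog Nr1d2 was at 53.3 to 72.3 CPM and then 119.6 to 350.1 CPM (log2 1.32 ± 0.29, edgeR adjusted p = 0.028, blocked 0.063). Bhlhe40, which represses the same activators, was at 344 to 384 CPM at day 14, 509 to 579 CPM in the letter-coded and 924 to 1204 CPM in the R60-60 libraries (log2 1.28 ± 0.28, edgeR adjusted p = 0.029, blocked 0.094). Ciart, another repressor, was at 0.0764 to 0.255 CPM and then 0.228 to 3.77 CPM, near the limit of counting (log2 3.29 ± 0.77, edgeR adjusted p = 0.038, blocked 0.11). With the block 3 of the 7 kept their calls, namely Dbp, Tef and Nr1d1. Without code B4, D1 or D9 the number called was 3, 2 and 3, and without E2 9 rose and 1 fell.

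In the R60-60 comparison 12 clock genes rose and 2 fell (77.8%, against 19.2% of all genes), and the block left the same numbers. Per2, a core repressor, was at 5.84 to 9.88 CPM at day 14, 15.0 to 22.4 CPM in the R60-60 libraries and 18.2 to 69.1 CPM in the letter-coded ones. Per3 followed with 6.45 to 11.4, 12.3 to 19.7 and 18.9 to 88.0 CPM in the same order, E2 being the highest in both. Both passed in the R60-60 comparison (log2 1.23 ± 0.14 for Per2 and 0.95 ± 0.16 for Per3, edgeR adjusted p = 0.00023 and 0.0026) and neither in the 11 libraries (edgeR adjusted p = 0.052 and 0.11). The activators had differences below 0, which passed in the R60-60 comparison and not in the 11 libraries (edgeR adjusted p = 0.13 for Arntl and 0.056 for Npas2). Arntl was at 61.5 to 68.8 CPM at day 14 and 30.04 to 44.0 CPM in the R60-60 libraries (log2 -0.90 ± 0.13, edgeR adjusted p = 0.0011). Npas2 was at 60.0 to 80.1 and 25.9 to 40.4 CPM (log2 -1.21 ± 0.15, edgeR adjusted p = 0.0004). F2 had 64.6 CPM of Arntl, within the day 14 range. The hour at which hearts were taken is not given in the labels, so time of day and time after ligation cannot be told apart. Nr1d2, Bhlhe40, Ciart, Per2, Per3, Arntl and Npas2 are given because they complete the loop, and they were chosen after their values were seen. In the annotation Per3 overlaps Camta1 on the same strand, so reads of these genes could be mixed. Dbp overlaps Sphk2 and Nr1d1 overlaps Thra, both on the opposite strand, and the strand setting of the counting is not given in the sources used here.

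**Figure D1:**
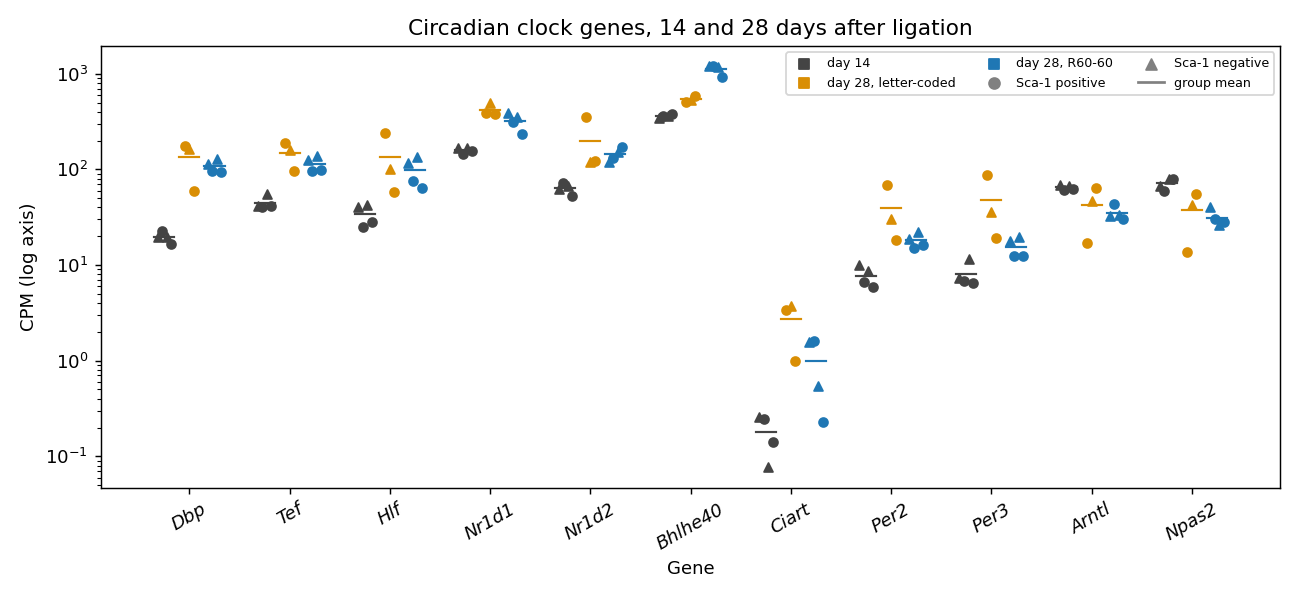
CPM of 11 clock genes (log axis) in each library, with the 4 day 14 libraries in grey, the 3 letter-coded day 28 libraries in orange and the 4 R60-60 libraries in blue; circles are Sca-1 positive, triangles Sca-1 negative and bars group means. Dbp is at 16.7 to 22.7 CPM at day 14 and at 60.0 to 177 CPM at day 28, whereas Arntl and Npas2 have lower means at day 28.

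BMAL1 with its partner binds the E-box, CACGTG, and the factors encoded by Dbp, Tef and Hlf bind the D-box, TTANGTAA. Promoter windows of the 250 bases before each RefSeq start (GRCm38.p6) were searched on both strands for these letters, which do not overlap each other. Of the 18 tested clock genes 16 had an entry, with 21 starts. An E-box lay in 6 of the 21 windows and in 5 of the 16 genes, against 6.02% of 32851 windows of all genes, and a D-box in 1 window against 2.06%. Of the 7 genes called higher 6 had a window, without Bhlhe40, and of these Tef and Ciart had an E-box and Dbp had neither motif in this window. The windows below show the called genes with and without an E-box and the D-box pair of Per3, with motifs in capitals. They are Tef at its downstream start (chr15:81811164-81811413, plus strand), Ciart with 3 E-boxes (chr3:95882229-95882478, minus strand), Dbp (chr7:45704997-45705246, plus strand) and Per3 with 2 D-boxes (chr4:151044666-151044915, minus strand).
Tef: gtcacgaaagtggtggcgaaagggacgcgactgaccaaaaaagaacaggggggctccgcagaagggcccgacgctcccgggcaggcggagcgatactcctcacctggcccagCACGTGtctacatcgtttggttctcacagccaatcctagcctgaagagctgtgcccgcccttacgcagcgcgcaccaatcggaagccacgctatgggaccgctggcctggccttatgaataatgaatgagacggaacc
Ciart: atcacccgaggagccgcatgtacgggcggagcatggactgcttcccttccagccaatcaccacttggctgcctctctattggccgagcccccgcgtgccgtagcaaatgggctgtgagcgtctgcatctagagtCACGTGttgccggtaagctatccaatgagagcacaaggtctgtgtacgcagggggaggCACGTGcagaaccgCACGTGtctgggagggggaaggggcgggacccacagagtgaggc
Dbp: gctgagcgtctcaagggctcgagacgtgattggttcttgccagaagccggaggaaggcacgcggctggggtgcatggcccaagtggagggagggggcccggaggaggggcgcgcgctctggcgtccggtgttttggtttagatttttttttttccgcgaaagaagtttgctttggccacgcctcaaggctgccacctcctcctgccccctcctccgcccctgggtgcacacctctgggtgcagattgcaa
Per3: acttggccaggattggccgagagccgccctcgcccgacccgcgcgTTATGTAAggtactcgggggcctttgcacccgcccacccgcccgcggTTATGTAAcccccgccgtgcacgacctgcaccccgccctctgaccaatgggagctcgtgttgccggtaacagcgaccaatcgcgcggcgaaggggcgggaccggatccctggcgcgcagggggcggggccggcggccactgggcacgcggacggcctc
A match is a run of letters and not a measured binding site.

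Of 25 genes of Wnt signalling, 5 fell (Wnt2, Wnt5a, Wif1, Axin2 and Fzd1) and none rose (20%, against 3.59% of all genes), with a list median of -0.54. The same 5 fell in the R60-60 comparison, where Wnt11 rose (24%, near the 19.2% of all genes). Wnt2, a secreted ligand (chromosome 6, 17988940 to 18030585), was at 4.38 and 11.4 CPM in D1 and 6.96 and 11.8 CPM in D9. At day 28 it ran from 0.705 through 0.988 to 2.40 CPM, below every day 14 library (log2 -2.77 ± 0.26, edgeR adjusted p = 0.00018). Wnt5a, a ligand of the pathway that does not need beta-catenin, was at 35.9 to 70.9 CPM and then 17.4 to 27.6 CPM (log2 -1.25 ± 0.20, edgeR adjusted p = 0.0089, blocked 0.076). The secreted inhibitor Wif1 was at 5.15, 1.68, 15.0 and 1.32 CPM at day 14 and between 0 and 0.449 CPM at day 28, with a median of 0.068 CPM. It was thus at or near the limit of counting in the late libraries, and its fitted difference of -4.96 ± 0.57 depends on the prior count (edgeR adjusted p = 0.00089, blocked 0.04). Trabd2b, whose product cleaves Wnt proteins, fell from 51.9 to 77.2 CPM to between 9.80 and 22.2 CPM (log2 -2.02 ± 0.17, edgeR adjusted p = 0.00014). With the block Wnt2 and Wif1 kept their calls and Wnt4 gained one, and without code B4 2 genes of the list were called.

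Single transcription factors of development were also lower. Tbx5, a factor of heart and forelimb (chromosome 5, 119832668 to 119885219), was at 5.09 and 9.41 CPM in D1 and 5.31 and 8.48 CPM in D9, against 0.998, 1.26 and 1.77 CPM as lowest, median and highest values at day 28. The 2 ranges were far apart (log2 -2.40 ± 0.25, edgeR adjusted p = 0.00048). Of 11 cardiac transcription factors Tbx5 was the only 1 called, while edgeR gave 6 at an unadjusted p under 0.05. In the list 6 had a difference above 0 (median 0.068). In the R60-60 comparison 1 rose and 2 fell (27.3%, against 19.2% of all genes), and in the 11 libraries without E2 2 fell. Sox4 went from 39.9 to 81.8 CPM to between 8.85 and 22.7 CPM (log2 -1.70 ± 0.18, edgeR adjusted p = 0.00047). Outside the naming rule, which asks for a higher mean level, and chosen after its values were seen, Hoxa5 was at 9.54 to 19.5 CPM and then 0.898 to 2.67 CPM (log2 -3.20 ± 0.28, edgeR adjusted p = 0.00014). In the annotation Hoxa5 overlaps Hoxa3 on the same strand, so reads of the 2 genes could be mixed. Zbtb20, a zinc finger repressor, ran from 27.7 to 53.5 CPM at day 14 and from 8.45 to 22.7 CPM at day 28 (log2 -1.69 ± 0.26, edgeR adjusted p = 0.0061, blocked 0.041).

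Of 28 collagen chains 4 fell (Col1a1, Col3a1, Col5a1 and Col24a1) and none rose, and 25 of 28 had a difference below 0, with a median of -0.45. Col1a1, a chain of type I collagen, was at 24890 and 18340 CPM in D1 and 12080 and 15050 CPM in D9. Its lowest, median and highest values at day 28 were 4280 (E2), 8602 and 11310 CPM, all below day 14 (log2 -1.09 ± 0.24, edgeR adjusted p = 0.031, blocked 0.1). Col3a1 was at 20930 to 30240 CPM and then 11340 to 18170 CPM (log2 -0.89 ± 0.19, edgeR adjusted p = 0.026, blocked 0.093). Sparc, a collagen-binding secreted protein, was at 8874 to 11920 CPM and then 4691 to 7428 CPM (log2 -0.89 ± 0.17, edgeR adjusted p = 0.02, blocked 0.07). With R60-60 alone 8 collagens fell and none rose (28.6%, against 19.2% of all genes). The list of collagen-processing genes gave 1 higher and 1 lower of 24 (median -0.020), and 4 and 4 in the R60-60 comparison (33.3%, against 19.2% of all genes). No collagen was called with the block in the 11 libraries or without D1 or B4, while without D9 2 were.

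Markers of activated fibroblasts gave 4 lower genes and 1 higher of 22 in the 11 libraries. In the R60-60 comparison 2 fell and 1 rose (13.6%, against 19.2% of all genes). The list median was -0.27 over the 11 libraries, -0.062 with the letter-coded and -0.45 with the R60-60 libraries at day 28. Cthrc1, a secreted protein of activated fibroblasts, was at 221, 199.8, 235 and 70.6 CPM at day 14 and had a lowest value of 19.7, a median of 36.6 and a highest of 76.1 CPM at day 28. The ranges touched, since E4 at day 28 exceeded the positive D9 library (log2 -2.08 ± 0.34, edgeR adjusted p = 0.012, blocked 0.067). Adam12, a membrane protease, was at 23.2 to 127 CPM and then 6.91 to 19.5 CPM (log2 -2.67 ± 0.42, edgeR adjusted p = 0.011, blocked 0.062, and 0.056 in the R60-60 comparison). Fibronectin, Fn1, ran from 2549 to 10230 CPM in day 14 libraries and from 1587 to 3585 CPM in day 28 libraries (log2 -1.44 ± 0.33, edgeR adjusted p = 0.036, blocked 0.15). Fn1 was not called in the R60-60 comparison, and its 11-library call was lost in 13 of the 25 other settings. Nox4, an oxidase that makes hydrogen peroxide, went the other way, from 47.8 to 79.8 CPM to between 91.1 and 209 CPM (log2 1.06 ± 0.22, edgeR adjusted p = 0.026, blocked 0.044). Postn, the gene of periostin, was at 2508 to 4799 CPM at day 14. At day 28 it was at 3512 to 8593 CPM in the letter-coded and 1012 to 2467 CPM in the R60-60 libraries. Its difference was -0.26 ± 0.50 over the 11 libraries (edgeR adjusted p = 0.82) and -1.17 ± 0.28 with the R60-60 libraries (edgeR adjusted p = 0.017). In the 11 libraries 1 activation gene was called lower without D1, and none without B4.

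Of 22 contractile genes 5 fell (Tagln, Cnn1, Tpm1, Tpm2 and Palld) and none rose, 4 had a difference above 0, and the median was -0.41. Tagln, an actin-binding protein of smooth muscle and myofibroblasts, was at 153, 102, 85.3 and 56.6 CPM at day 14 and had a lowest value of 24.6, a median of 36.0 and a highest of 58.7 CPM at day 28 (log2 -1.35 ± 0.22, edgeR adjusted p = 0.0089, blocked 0.033). Acta2, smooth muscle actin, was at 255, 127, 62.1 and 66.5 CPM and then between 34.4 and 84.0 CPM. The Acta2 difference did not pass (log2 -1.26 ± 0.35, edgeR adjusted p = 0.071), but passed without D9 (edgeR adjusted p = 0.011). Tagln alone kept its call with the block. No contractile gene was called without D1 or without B4. In the R60-60 comparison 5 contractile genes fell and none rose (22.7%, against 19.2% of all genes). Markers of mural cells, which also express contractile genes, summed to 446 to 669 CPM at day 14 and 400 to 861 CPM at day 28, with none of 11 called, and their part in these values was not tested.

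Proteins of the cartilage-like scar did not move together. Of 20 tested, 3 fell (Wif1, Clu and Acan), 1 rose (Omd), and the median was 0.40 over the 11 libraries, 0.87 with the letter-coded and -0.27 with the R60-60 libraries at day 28. Comp was at 268 to 987 CPM and then 703 to 2411 CPM (log2 1.197 ± 0.43, edgeR adjusted p = 0.14). Chad was at 0.933 to 17.0 and 1.03 to 53.8 CPM, and Fmod at 93.1 to 691 and 92.5 to 1792 CPM, with E4 the highest in both. Neither passed (edgeR adjusted p = 0.43 and 0.49). Cilp was at 1641 to 3315 CPM at day 14, 2049 to 3134 CPM in the R60-60 and 4230 to 5728 CPM in the letter-coded libraries (log2 0.75 ± 0.34, edgeR adjusted p = 0.23). Between the families at day 28, Cilp, Chad and Fmod were lower in R60-60 (log2 -1.21, -2.41 and -1.57, edgeR adjusted p = 0.0048, 0.018 and 0.023). Clu, the chaperone clusterin, was at 2005 and 1299 CPM in D1 but 241 and 136 CPM in D9, and at 34.6 to 192 CPM at day 28, so its call (log2 -3.29 ± 0.76, edgeR adjusted p = 0.046) was lost without D1 (edgeR adjusted p = 0.62).

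Of 21 genes of fibroblasts in the uninjured heart, 6 rose (Inmt, Fmo2, Gstm1, Gas1, Pcolce2 and Ms4a4d) and none fell, with a median of 0.71. In the R60-60 comparison 13 rose and none fell (61.9%, against 19.2% of all genes). Inmt, a methyltransferase of small amines, was at 102, 83.2, 77.3 and 22.1 CPM at day 14 and had a lowest value of 111, a median of 251 and a highest of 723 CPM at day 28. No library crossed, and the R60-60 libraries were at 251 to 723 CPM and the letter-coded ones at 111 to 251 CPM (log2 2.19 ± 0.45, edgeR adjusted p = 0.028, blocked 0.064). Gas1, a membrane protein first described in growth-arrested cells, went from 529 to 732 CPM to between 904 and 1223 CPM (log2 0.78 ± 0.16, edgeR adjusted p = 0.022, blocked 0.062). Fmo2, an oxidising enzyme, was at 49.7 to 113 CPM and then 124 to 417 CPM, E2 being the highest (log2 1.54 ± 0.38, edgeR adjusted p = 0.049, blocked 0.094). Gsn, the actin-severing protein gelsolin, was added after its values were seen: it passed in the R60-60 comparison (log2 1.05 ± 0.22, edgeR adjusted p = 0.0083) and not in the 11 libraries (edgeR adjusted p = 0.063). None of the 6 calls was kept with the block, without D9 or without B4, and 2 genes of the list were called without D1. In the R60-60 comparison the block left 13, and leaving out B4 or B6 left 4 and 6.

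Small leucine-rich proteoglycans, which bind collagen fibrils, gave 4 higher genes of 14 (Dcn, Ogn, Omd and Ecm2) and none lower, with a median of 0.65. Ecm2, which belongs to this family by sequence (chromosome 13, 49504810 to 49532789), was at 367, 318, 288 and 263 CPM at day 14 and had a lowest value of 595, a median of 601 and a highest of 881 CPM at day 28. The 4 R60-60 libraries lay within 595 to 618 CPM, and no library crossed between the times (log2 1.07 ± 0.16, edgeR adjusted p = 0.0065, blocked 0.014). Ogn, osteoglycin, was at 1107 to 1438 CPM and then 1870 to 4168 CPM (log2 0.89 ± 0.21, edgeR adjusted p = 0.04, blocked 0.083). Decorin, Dcn, was at 11170 to 14820 CPM and then 17250 to 29000 CPM (log2 0.73 ± 0.18, edgeR adjusted p = 0.046, blocked 0.12). Ecm2, Ogn and Omd overlap Cenpp, which is on the opposite strand, and the strand setting of the counting is not given in the sources used here. Ecm2 kept its call with the block, and without D1 or B4 1 gene of the list was called, and without D9 none. In the R60-60 comparison 4 of the 14 rose and 1 fell (35.7%, against 19.2% of all genes).

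**Figure D2:**
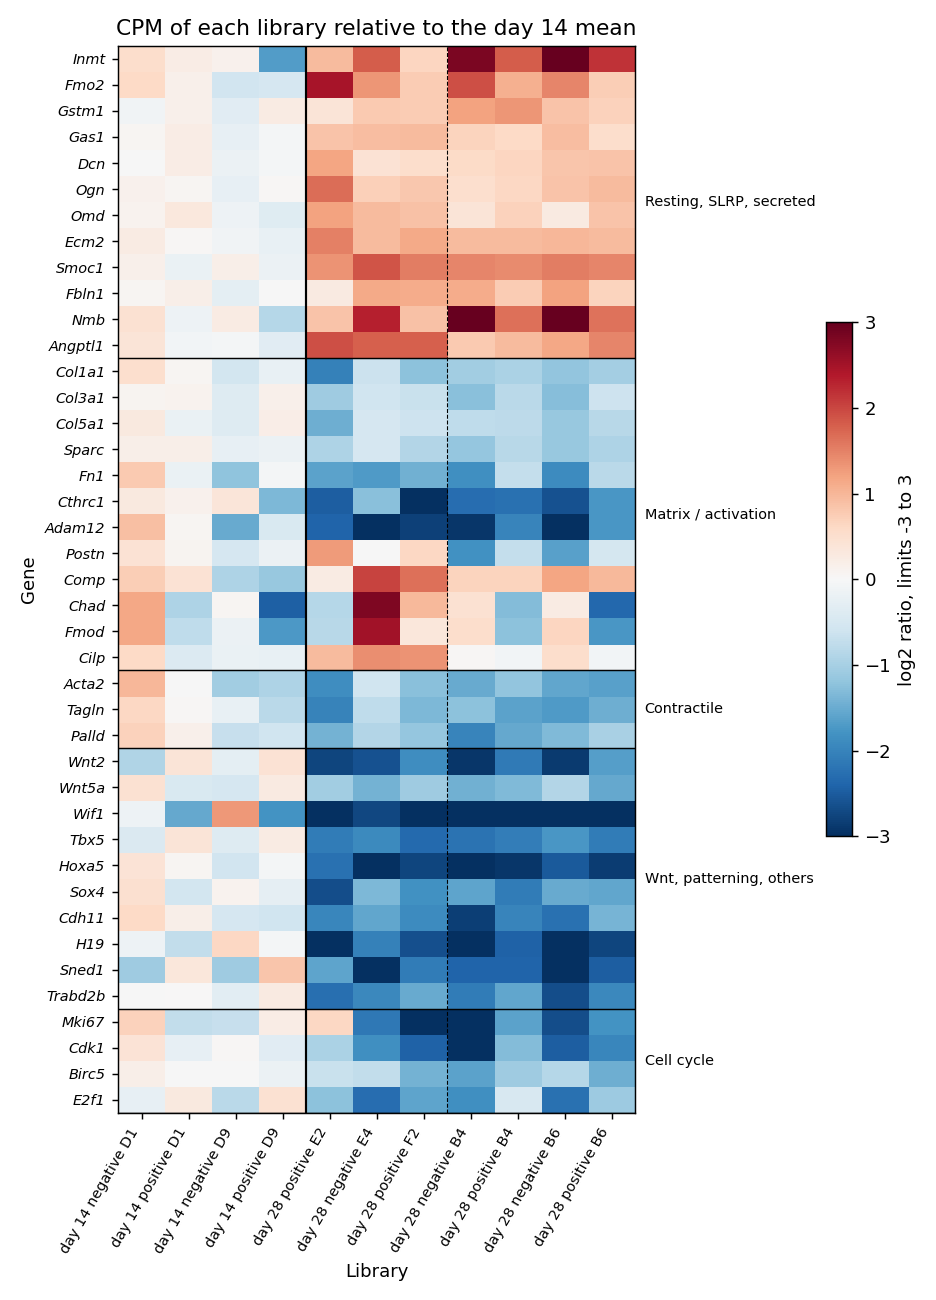
Colour shows log2 of each library's CPM plus 0.5 over the day 14 mean plus 0.5, for 41 genes (rows, grouped by list) in 11 libraries (columns); the solid line separates the times and the dashed line the letter-coded from the R60-60 libraries at day 28. Collagen and Wnt genes are below the day 14 mean in the 7 late libraries, the upper block is above it, and Postn, Chad and Fmod vary among the late libraries.

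Other genes named by the rule for size were of mixed function. Smoc1, a secreted calcium-binding protein related to Sparc (chromosome 12, 81026808 to 81186414), was at 8.61, 6.68, 8.83 and 6.84 CPM at day 14 and had a lowest value of 20.4, a median of 22.4 and a highest of 30.1 CPM at day 28. Its values were tight within each time (log2 1.62 ± 0.13, edgeR adjusted p = 0.00014), and leaving out or changing any setting tried gave an adjusted p of at most 0.0051. Nmb, the peptide neuromedin B, was at 4.65 to 12.3 CPM and then 16.4 to 76.0 CPM (log2 2.18 ± 0.26, edgeR adjusted p = 0.0011). It overlaps Sec11a on the same strand in the annotation, so that reads of the 2 genes could be mixed. Angptl1, a secreted angiopoietin-like protein, went from 37.1 to 62.5 CPM to between 82.5 and 183 CPM, the 3 letter-coded libraries being the highest (log2 1.48 ± 0.25, edgeR adjusted p = 0.011, blocked 0.022). Glul, glutamine synthetase, was at 139 to 333 CPM at day 14, 386 to 504 CPM in the letter-coded and 676 to 1098 CPM in the R60-60 libraries (log2 1.56 ± 0.36, edgeR adjusted p = 0.035, blocked 0.089). AI607873, which the annotation used here did not place, was at 44.7 to 62.6 and then 67.3 to 244 CPM (log2 1.49 ± 0.33, edgeR adjusted p = 0.032, blocked 0.11).

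Among the lower ones, H19, an imprinted RNA without a protein product, was at 52.5, 35.0, 90.0 and 56.2 CPM at day 14 and had a lowest value of 2.33, a median of 8.22 and a highest of 14.0 CPM at day 28. The gap between the times was wider than the range within day 28 but narrower than the range within day 14 (log2 -2.98 ± 0.47, edgeR adjusted p = 0.011, blocked 0.04). Sned1, a secreted matrix protein, was at 16.8 to 64.5 CPM and then 2.04 to 11.7 CPM (log2 -2.46 ± 0.27, edgeR adjusted p = 0.00066). Arsi, a sulfatase, went from 16.2 to 31.0 CPM to between 2.53 and 12.6 CPM (log2 -2.02 ± 0.30, edgeR adjusted p = 0.0054). Cdh11, a cadherin of mesenchymal cells, was at 113 to 259 CPM and then 23.9 to 65.1 CPM (log2 -1.94 ± 0.28, edgeR adjusted p = 0.0054, blocked 0.024). Fbn2, a fibrillin of elastic microfibrils, was at 58.8 to 128 and then 7.03 to 55.9 CPM, close to touching (log2 -1.89 ± 0.27, edgeR adjusted p = 0.0054). The signalling regulator Rgs16 (log2 -1.86 ± 0.29, edgeR adjusted p = 0.008) and the protease Adamts12 (log2 -1.80 ± 0.35, edgeR adjusted p = 0.023, blocked 0.092) were the remaining genes of this group. At lower levels, and chosen after their values were seen, Adamts17 was at 6.98 to 15.0 and then 0.422 to 0.953 CPM (log2 -4.05 ± 0.27, edgeR adjusted p = 2.1e-05), and Cemip, which breaks down hyaluronan, at 16.9 to 34.8 and then 0.817 to 3.54 CPM (log2 -3.74 ± 0.33, edgeR adjusted p = 0.00014).

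Of 37 cell cycle genes 3 fell and none rose, and the list had a median log2 difference of -1.26. Cdk1, the kinase of mitotic entry, was at 3.47 to 6.22 CPM and then 0.0705 to 2.11 CPM (log2 -2.54 ± 0.56, edgeR adjusted p = 0.03, blocked 0.094). E2f1, a factor of S phase entry, was at 6.37, 9.36, 4.13 and 10.6 CPM and then 1.17 to 5.32 CPM (log2 -1.70 ± 0.26, edgeR adjusted p = 0.0065, blocked 0.028). Birc5, survivin, was at 2.39 to 3.16 and then 0.564 to 1.55 CPM (log2 -1.40 ± 0.34, edgeR adjusted p = 0.041, blocked 0.083). Mki67, the proliferation antigen, was at 17.7, 6.24, 6.48 and 12.6 CPM at day 14, at 16.9 CPM in E2 and at 0.141 to 3.22 CPM in the other 6 late libraries (log2 -2.03 ± 0.90, edgeR adjusted p = 0.23). Without E2 14 genes of the list fell. In the R60-60 comparison 17 fell and 2 rose (Mcm4 and Pcna), together 51.4% against 19.2% of all genes. There the block left 10 lower, and without B6 5 fell.

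Genes of the acute stress and inflammatory response were called against day 14 mainly in the R60-60 comparison, and hardly in the 11 libraries. Of 32 early response genes, which are induced within minutes to hours of a stimulus, none was called in the 11 libraries by edgeR. None was called there by limma-voom with the block either, and edgeR gave 14 at an unadjusted p under 0.05. With R60-60 alone 22 rose and 2 fell (75%, against 19.2% of all genes). NF-kB targets gave 1 higher (Nfkb1) and then 12 higher of 15 (80%), and chemokines and cytokines 1 higher (Tslp) and then 13 higher of 25 (52%). A test of the families themselves at day 28, added after the data were seen, called 769 genes higher (5.76%) and 785 lower (5.88%) in R60-60 than in the letter-coded libraries. It called 19 early response genes, 11 NF-kB targets and 11 chemokines or cytokines higher in R60-60, and 2, 0 and 0 lower. The list medians against day 14 were 0.57, 0.65 and 0.52 in the 11 libraries and 0.775, 1.04 and 0.69 with R60-60 alone. With the letter-coded libraries alone they were -0.25, -0.49 and -0.32. In the 11 libraries without E2, 6, 1 and 3 genes of these lists rose, and 0, 0 and 1 fell.

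Nr4a2, an early response nuclear receptor, was at 36.7, 31.4, 46.8 and 22.8 CPM at day 14, at 25.4, 27.4 and 28.4 CPM in E2, E4 and F2, and at 268, 198, 258 and 226 CPM in the R60-60 libraries. The letter-coded libraries fell inside the day 14 range and the R60-60 ones far above it (family difference log2 3.05, edgeR adjusted p = 3.6e-06). Il6, the interleukin 6 gene, was at 48.0 to 121 CPM, 62.6 to 127 CPM and 688 to 1651 CPM in the same order. Cxcl1, a chemokine for neutrophils, was at 343 to 807, 577 to 816 and 2489 to 3521 CPM. Ptx3, a secreted pattern recognition protein, was at 24.8 to 209, 19.3 to 31.3 and 590.1 to 1419 CPM. Ccl2, a chemokine for monocytes, was at 36.7 to 95.0, 28.7 to 30.4 and 167 to 344 CPM, so that the letter-coded values were below day 14. Fos and Jun were the 2 lower early response genes, Fos being at 4193 to 6028 CPM at day 14 and 2114 to 2891 CPM in R60-60 (log2 -0.95 ± 0.19, edgeR adjusted p = 0.0059). Of these, Nr4a2, Il6, Cxcl1 and Ptx3 were chosen after their values were seen. The heat shock list had 8 higher of 18 against day 14 with R60-60 (44.4%, against 19.2% of all genes). In the 11 libraries none was called by edgeR or with the block, and edgeR gave 3 at an unadjusted p under 0.05. With the letter-coded libraries alone 4 fell (list median -0.28), and 12 were higher in R60-60 than in the letter-coded libraries (list median 1.035). Neutrophil markers summed to at most 1.83 CPM in any library, and macrophage markers to 40.2 to 67.3 CPM at day 14 and 23.3 to 89.5 CPM in R60-60.

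**Figure D3:**
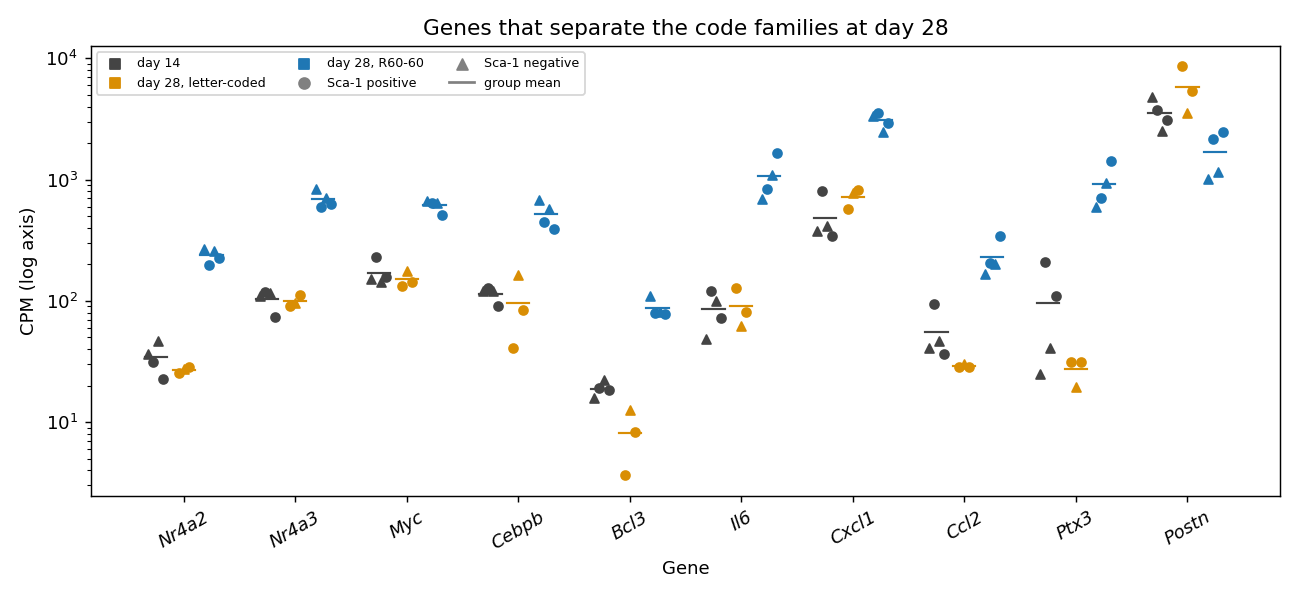
CPM (log axis) of 9 acute response genes and Postn in each library, coloured by day 14 (grey), letter-coded day 28 (orange) and R60-60 day 28 (blue), with circles for Sca-1 positive and triangles for Sca-1 negative libraries and bars for group means. Il6 is at 688 to 1651 CPM in the R60-60 libraries and at 48.0 to 127 CPM in the other 7, and Postn has the opposite order at day 28.

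Within the gates the small groups gave few calls. In the Sca-1 positive gate 5 genes rose and 19 fell (0.0375% and 0.142%, together 0.18%), and in the Sca-1 negative gate 8 rose and 24 fell (0.06% and 0.18%, together 0.24%). Of these, 13 were called in both gates, which is 54.2% of the positive and 40.6% of the negative calls. They were Dbp, Smoc1, Tmem204 and Cyp27a1, higher in both, and Adamts17, Tbx5, Trabd2b, Cemip, Hoxa5, Wnt2, Tmtc2, Sox4 and Srgap1, lower in both. The log2 difference of Dbp was 2.43 ± 0.38 in positive libraries and 2.77 ± 0.40 in negative ones, and Smoc1 by 1.70 ± 0.20 and 1.53 ± 0.20. Tenascin C, Tnc, was called in the negative gate, where it went from 896 ± 713 to 172 ± 37.4 CPM (SD, n = 2 and 3), and differed by -0.94 ± 0.38 in the positive gate. Libraries of the 2 gates share codes, so the gates are not independent of each other.

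The difference between the gates' changes was tested by itself and called no gene (edgeR, 220 genes at an unadjusted p under 0.05; limma-voom none, with or without the block). DESeq2 called Ntrk2 and Ism1, both changing below 0 in the positive gate and above 0 in the negative (log2 -1.28 and 1.95 for Ntrk2, -0.75 and 0.54 for Ism1; edgeR adjusted p of the difference = 0.996 and 0.97). The positive gate count fell to 0 without the positive D9 library. The negative gate count fell to 0 without the negative B4 library and to 1 without the negative D1 library, and rose to 74 with the block. Mrgprg, with the largest fitted change in the positive gate, was at 4.72 ± 2.76 CPM at day 14 and had no count at day 28 there, so that its fitted value depends on the prior count.

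**Figure D4:**
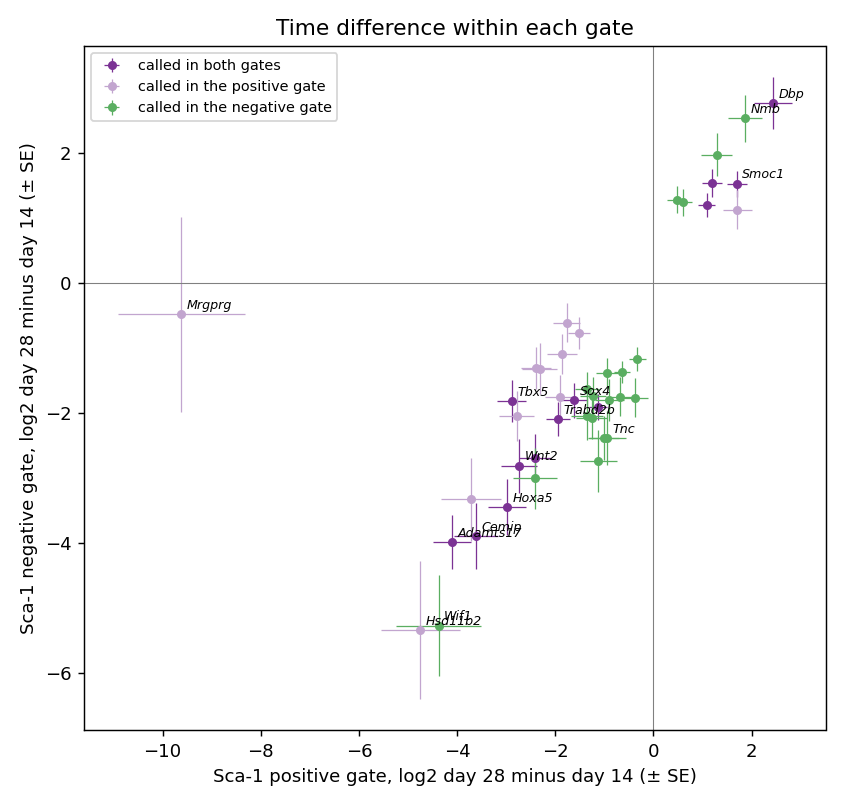
Log2 difference between day 28 and day 14 in the Sca-1 positive gate (x axis) and the Sca-1 negative gate (y axis) with standard errors, for the 43 genes called in either gate. Each of the 43 has the same sign in both gates, and the 13 purple ones were called in both; the far left point, Mrgprg, had no counts at day 28 in the positive gate.

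In the TGF-beta and BMP list of 34, 4 genes rose, Id2, Smad7 and Bmp4 among them, and 2 fell, among them Grem1, a BMP antagonist. The block left 0 higher and 1 lower, and without B4 or D9 none was called. With R60-60 alone 11 rose and 4 fell (44.1%, against 19.2% of all genes). Id2, a target of BMP signalling, was at 74.1 to 116 and then 126 to 269 CPM (log2 1.02 ± 0.18, edgeR adjusted p = 0.012, blocked 0.056). Of 35 growth factors Fgf9 rose (2.08 to 2.83 and then 4.58 to 11.2 CPM, log2 1.61 ± 0.24, edgeR adjusted p = 0.0054, blocked 0.026) and Fgf1 and Mdk fell. Fgf1 was at 16.2 to 28.0 and then 1.98 to 10.2 CPM (log2 -1.64 ± 0.26, edgeR adjusted p = 0.0083, blocked 0.033). Aldh1a1, an enzyme of retinoic acid synthesis in the epicardial marker list, was at 169.8 to 305 CPM and then 362 to 742 CPM (log2 1.26 ± 0.20, edgeR adjusted p = 0.0078, blocked 0.022), the only gene called of the 13 in that list, and not called without D9. The rest of the list mostly had differences below 0: 2 of 13 were above 0, the median was -0.80 (-2.61 with the letter-coded libraries alone), and 8 had an unadjusted p under 0.05. Wt1, a transcription factor of the epicardium, was at 90.4, 51.7, 31.0 and 17.4 CPM at day 14 and at 6.41 to 31.8 CPM at day 28 (log2 -1.66 ± 0.48, edgeR adjusted p = 0.087; chosen after its values were seen). The part of epicardial cells in the other results was not tested.

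In metabolism, Dgat2, which makes triglycerides, was at 1.73 to 2.66 and then 2.92 to 14.0 CPM (log2 1.97 ± 0.32, edgeR adjusted p = 0.0088, blocked 0.04), and Pdk4, which restrains glucose oxidation, rose by 0.93 ± 0.20 on the log2 scale (edgeR adjusted p = 0.026, blocked 0.05). Of 76 subunits of oxidative phosphorylation 3 fell (Ndufa3, Ndufa4 and Cox6b2) and none rose, which is 3.95% against 3.59% of all genes. No subunit was called with the block or without D1, D9, B4, B6 or E4. In the R60-60 comparison 8 rose and 4 fell (15.8%, against 19.2% of all genes). In the 11 libraries no gene was called among 75 ribosomal protein genes, 22 integrins, 23 cholesterol genes and 16 cell cycle inhibitors and p53 targets, whose medians were 0.048, -0.018, -0.075 and 0.11. At an unadjusted p under 0.05 edgeR gave 4, 5, 2 and 5 genes of these lists, and limma-voom with the block called none. In the R60-60 comparison, where 19.2% of all genes were called, 7 of 75 ribosomal genes rose (9.33%). There 3 of 21 integrins (14.3%) and 3 of 23 cholesterol genes (13%) fell. Of the 16 inhibitors and p53 targets 5 rose and 4 fell (56.2%), and the block left 4 and 3. Between the families at day 28, 27 ribosomal genes were higher in R60-60 and 0 lower. The adventitial list gave 3 lower of 27 in the 11 libraries (Ly6c1, Cd248 and Limch1), with none called with the block or without D9 and 1 without B4 or B6. In the R60-60 comparison 4 rose and 9 fell (48.1%, against 19.2% of all genes), and the block left 4 and 7. There 2 rose and 3 fell without B4, and 1 rose and 2 fell without B6. Ly6a itself did not pass (log2 -0.66 ± 0.19, edgeR adjusted p = 0.079). Plin1, the adipocyte gene, was called lower through the D9 libraries (4.39 and 3.12 CPM, against 0 and 0.396 CPM in D1 and at most 0.0713 CPM at day 28).

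**Figure D5:**
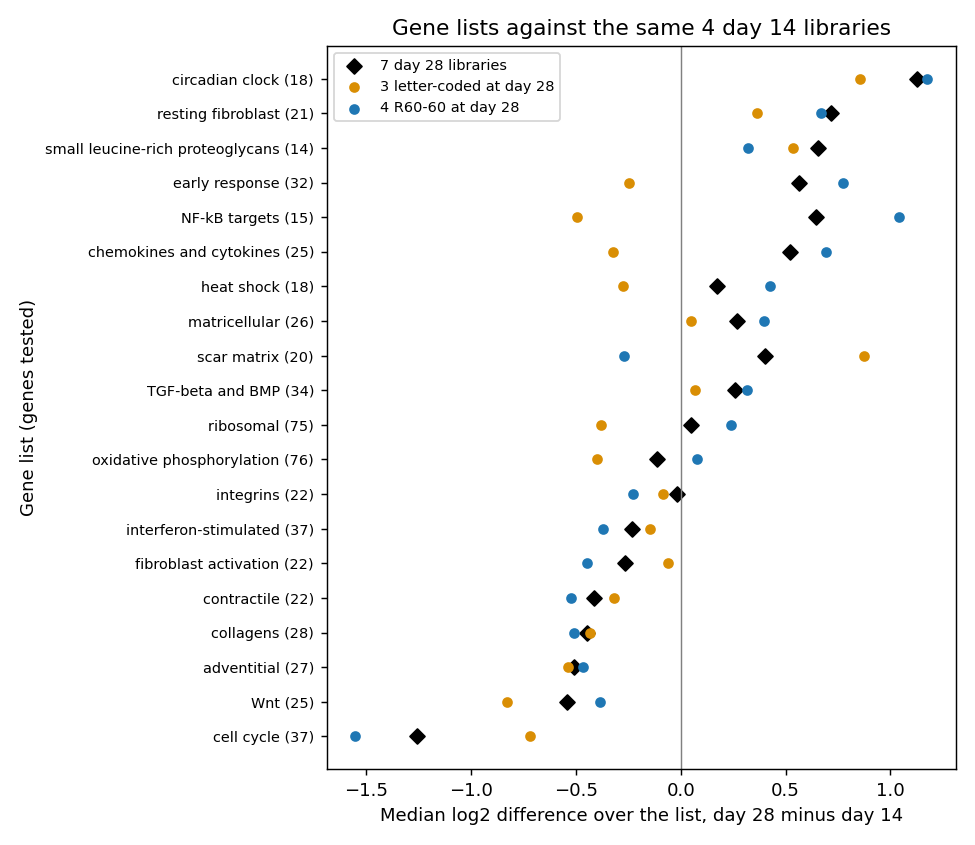
Median log2 difference over the tested genes of 20 lists (number tested in brackets), day 28 minus the same 4 day 14 libraries, with all 7 day 28 libraries (black), the 3 letter-coded (orange) or the 4 R60-60 libraries (blue). Clock, resting fibroblast and proteoglycan lists are above 0 and cell cycle, Wnt and collagen lists below 0 with each set, whereas early response, NF-kB and chemokine lists are above 0 with R60-60 and below 0 with the letter-coded libraries.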

How the data were processed

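RNA of sorted cells was sequenced from a stranded, poly(A)-selected library per sample, per the labels' protocols. The authors deposited 1 file of raw read counts per gene and library, with 24421 genes and 2 entries without a gene, which were left out of totals and tests (7.18% to 55.8% of reads). The submitters' processing notes name bcl2fastq, TopHat, Bowtie2, STAR, Cufflinks and the mm10 build, while the counting program and its strand setting are not given in the sources used here. Counts were tested with edgeR 4.0.16 in R 4.3.3 (filterByExpr, TMM factors, robust quasi-likelihood test, Benjamini-Hochberg adjustment over all genes tested), with gate and time as terms. Per-gate differences and the difference between gates came from a fit of 4 groups. CPM uses TMM-scaled library sizes, and a standard error is the log2 difference over the root of F.

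Members, gene lists and tests were chosen with earlier results of these data known. Named genes are up to 10 per direction with the largest difference among genes called in both comparisons, with a mean log2 CPM of at least 3 and no overlap between the times, up to 3 members per list with the smallest p, and anchor genes. Genes called in both gates were named after their values were seen, as were 20 others, stated where they occur or in the families plot. Libraries of a code deviated together across genes (r = 0.433 for D1 and D9, which mirror each other, 0.352 for B4, 0.306 for B6). Letter-coded libraries of different codes did so too (0.408 for F2 with E4, 0.285 for E2 with E4). The positive B4 and B6 libraries had -0.384 and -0.319 with E4, so the deviations at day 28 also followed the code families. Codes were treated as pairs in the blocked fit (limma 3.58.1 voom, code as random effect). Its correlation was 0.425 in the 11 libraries and 0.0886 in the R60-60 comparison, so the block was weak in the latter. DESeq2 1.42.0 was an alternative. On simulated counts for the 11 libraries edgeR recovered 64% of genes changed by a log2 of 1 and 97% of those changed by 2, with 9 false calls among 13152 genes. The simulated libraries were independent, without a correlation within codes or a difference between the families, and only genes above a minimum level were changed. These rates therefore do not carry over to the real libraries, which have both. Gene positions are from GENCODE M21 (GRCm38), matched by symbol for 95.7% of genes, and promoters from RefSeq. Further named genes overlap a coding gene on the opposite strand, such as Tagln (Pcsk7), Fgf1 (Arhgap26) and Sned1 (Mterf4). The heat map adds 0.5 CPM before taking the log. The other 15 libraries were used only in 1 alternative or not at all. Results for some genes are not reported here.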

Additional observations from a re-analysis of the deposited data

Results flagged for a closer look

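Among the 4 Sca-1 positive libraries at day 28, 1 library lay far from the other 3 for 12 of the named genes (Dixon's test, 112 tests, of which chance gives about 1 in 20). E2, the library with the most reads outside genes, was the distant one for 7 of them. In E2, Mki67 was at 16.9 CPM (0.784 to 3.22 CPM in the others), Hlf at 242 CPM (58.1 to 76.1), Tef at 188 CPM (97.0 to 98.0), Per2 at 69.1 CPM (15.0 to 18.2), Per3 at 88.0 CPM (12.3 to 18.9), Fmo2 at 417 CPM (124 to 155) and Mdk at 10.5 CPM (31.2 to 34.3). F2 was lowest for Tbx5 (0.998 CPM, others 1.26 to 1.30) and Herpud1 (155 CPM, others 217 to 223), and alone had counts of Cnn1 (0.142 CPM) and Plin1 (0.0713 CPM). B6 was highest for Cdh11 at 65.1 CPM (43.1 to 45.8 in the others).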

How the results depend on the processing

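The 479 calls of the 11 libraries became 1320 with DESeq2, 99 with the replicate block, 1024 with libraries summed per code over codes with both gates, 182 with the letter-coded libraries alone at day 28, and, leaving out a code, 132 (D1), 163 (D9), 85 (B4) and 251 (B6), or a single library, 137 (negative D1) to 789 (E2). The 2558 calls of the R60-60 comparison became 1024 when summed per code 1659 (D9), 1246 (B4) and 1218 (B6) without a code, 1396 to 2362 without a single library, and 2110 with the block. The 24 calls of the positive gate became 147 with DESeq2, 15 with 20 libraries in the fit and 0 to 23 without 1 library. The 32 of the negative gate became 460 with DESeq2, 74 with the block and 0 to 81 without 1 library. The difference between gates had 0 calls in each fit without 1 library and 2 with DESeq2. Among the named genes only, no called gene changed direction in the alternatives run on it: over genes and alternatives, 1373 values kept the call and 650 lost it in the 11 libraries, and 1613 and 207 did so in the R60-60 comparison. Differences that were not called and changed sign in the 11 libraries were, with the letter-coded libraries alone, Postn (0.58), Tcf21 (-0.080), Ccl2 (-0.96), Nr4a2 (-0.27), Nr4a3 (-0.070), Myc (-0.22), Cebpb (-0.30), Bcl3 (-1.21), Il6 (-0.066) and Ptx3 (-1.73). Summing per code turned Chad (-0.25) and Hspa1a (0.41). Leaving out libraries turned Postn (D1 0.053, B4 0.053, B6 0.019, negative D1 0.10, with single libraries from -0.54), Runx1 (D1 0.65, negative D1 0.19, with single libraries from -0.52) and Hspa1a (D9 0.029). In the R60-60 comparison Chad turned without D1 (0.62; negative 0.042, positive 0.092; lowest -0.56), and Fmod when summed (0.0091) and without D1 (0.52; negative 0.11, positive 0.073; lowest -0.41). Runx1 turned with upper quartile factors (-0.031), when summed (-0.019), and without D9 (-0.55; negative -0.14, positive -0.31) or B6 (-0.37; positive -0.24; highest 0.48). The cause of these changes was not tested. Depth limits genes near 3 counts, 0.0573 to 0.422 CPM, and intervals for counting error do not cover differences between animals.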
